A study of Mus musculus with 10 samples.

Results

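Tagln, Cnn1, Cnn2, Cnn3, Myl9, Myh11, Ctgf, Cyr61, Ankrd1 and Srf, genes of the smooth muscle cytoskeleton and targets of SRF and YAP, were followed across a study of Huwe1 and USP10 in C2C12 mouse myoblasts. These 10 genes were chosen by name out of 23417 genes in each of the 3 Huwe1 tables and 23431 in the USP10 table. All 10 were found in every table. Across the 4 comparisons Ctgf was the member furthest above its control, in Huwe1 knockdown cells at day 6, and Tagln, Myl9 and Cnn1 each lay furthest below their controls in Huwe1 knockdown myotubes at day 8. Cnn2 was higher than its control at day 6 in both the Huwe1 knockdown and the USP10 comparison, and Ankrd1 was lower than its control at day 6 and day 8.

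Serum response factor, encoded by Srf, binds CArG boxes in DNA and works with partners that sense the state of actin (the myocardin-related factors, MRTF) or growth factor signals (the ternary complex factors, TCF). YAP is the effector of the Hippo kinase pathway and acts through TEAD proteins, which bind MCAT motifs, and Ctgf, Cyr61 and Ankrd1 are its usual reporter genes. Many contractile genes of smooth muscle are SRF targets, and myoblasts transcribe several of them before they fuse into myotubes.

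C2C12 is an established line of mouse skeletal myoblasts that is kept dividing in growth medium and forms myotubes once moved to a differentiation medium with horse serum. Day 0 cells were in growth medium, day 6 cells had spent 6 days in differentiation medium and the day 8 cells were myotubes. The controls of day 0 and day 6 were labelled wildtype, and the day 8 control carried a non-targeting RNA according to its label, whereas its table and the study's methods call it wild type. Each Huwe1 knockdown was made with 2 libraries, each with its own short hairpin RNA against Huwe1. By the labels the hairpins of the day 8 myotubes, which were infected with lentivirus after differentiation had begun, were not those of days 0 and 6, whereas the methods give the day 8 pair for myoblasts and myotubes alike. The USP10 line carried a USP10 cDNA under the EF1a promoter and was collected at day 6. In the Huwe1 tables the 2 knockdown libraries had been pooled into 1 value and each control came from 1 library, as did the column of the USP10 line. The control of the USP10 table was not matched to a library. Each table thus gave 1 FPKM value per gene and condition and no FPKM of single replicates, and no test was run here. The control of the USP10 table bore the same name as the day 6 control of the Huwe1 table but had other values, and was taken as a second control column of day 6. Whether it came from a separate culture is not given in the sources used here.

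Values are FPKM, fragments scaled to the length of the transcript and the size of the library, which allow levels of different genes to be compared within a column. A log2 ratio is log2 of treated over control after 0.01 FPKM was added to each. A gene was counted in a comparison when it reached at least 1 FPKM in at least 1 of the 2 columns, and called when its ratio was at least 2-fold. Columns not known to be pooled held an estimated 7760000 to 29500000 fragments, with the control of the USP10 table, if it was 1 library, the shallowest. Huwe1 itself was 38.3 FPKM in the day 0 control and 15.2 in its knockdown, 35.1 and 21.9 at day 6, and 55.4 and 33.0 at day 8. Usp10 was 10.3 FPKM in the USP10 table's control and 38.3 in the USP10 line, and it was also 13.2 in the day 6 control and 35.4 in the day 6 Huwe1 knockdown.

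To show which members carry the elements that SRF and TEAD are known to bind, the 250 bases before the RefSeq transcription start were searched on both strands in the 7 members with an entry. A strict CArG box, with only A and T between its outer pairs, was in the window of Srf, Cnn2 and Myl9. The MCAT motif, spelled CATTCC or GGAATG, was in the window of Cyr61 and Ankrd1. Neither was in the window of Cnn1 or Cnn3. Of 32851 promoter entries of the same length, 1.47% held the CArG box and 12.6% the MCAT motif. Tagln, Myh11 and Ctgf were not among the entries. The following sequences are from RefSeq on GRCm38.p6, 5′ to 3′ on the strand of the gene, with the motif in capitals. A match describes letters in this window and is not evidence of binding. The printed stretches lie before the annotated exons, at chr17:46556176-46556412 (minus strand) for Srf, chr10:79988350-79988583 (plus strand) for Cnn2, chr2:156775214-156775419 (plus strand) for Myl9 and chr3:145649986-145650235 (minus strand) for Cyr61. The Ankrd1 window lies in an exon of another annotated transcript, so only its sites are shown, at chr19:36120039-36120064 (minus strand) and chr19:36119952-36119977 (minus strand). The CArG boxes of Srf began 82 and 62 bases before the start, those of Cnn2 and Myl9 56 and 161 bases before it. The MCAT of Cyr61 began 103 bases before the start and those of Ankrd1 210 and 123 bases before it.
Srf: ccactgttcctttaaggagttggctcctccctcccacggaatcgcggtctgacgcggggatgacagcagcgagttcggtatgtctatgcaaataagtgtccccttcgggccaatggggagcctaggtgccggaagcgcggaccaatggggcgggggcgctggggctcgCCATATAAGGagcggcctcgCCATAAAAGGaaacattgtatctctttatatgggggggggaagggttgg
Cnn2: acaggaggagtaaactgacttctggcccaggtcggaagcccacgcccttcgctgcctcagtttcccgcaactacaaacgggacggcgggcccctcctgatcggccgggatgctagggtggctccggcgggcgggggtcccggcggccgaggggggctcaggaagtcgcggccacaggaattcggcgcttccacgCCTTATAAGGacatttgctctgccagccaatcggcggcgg
Myl9: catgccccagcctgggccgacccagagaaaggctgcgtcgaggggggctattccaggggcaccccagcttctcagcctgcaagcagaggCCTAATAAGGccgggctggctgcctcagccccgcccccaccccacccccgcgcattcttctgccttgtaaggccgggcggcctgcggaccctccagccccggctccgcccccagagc
Cyr61: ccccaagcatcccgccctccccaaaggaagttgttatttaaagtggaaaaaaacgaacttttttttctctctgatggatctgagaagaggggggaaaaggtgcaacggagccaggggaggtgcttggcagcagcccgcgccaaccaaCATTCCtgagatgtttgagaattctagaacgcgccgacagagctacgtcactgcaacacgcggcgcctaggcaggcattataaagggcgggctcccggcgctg
Ankrd1 distal site: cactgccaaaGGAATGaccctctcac
Ankrd1 proximal site: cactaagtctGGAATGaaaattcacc

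All of the genes lie on mouse autosomes, here given on GRCm38 from GENCODE M21 and in gene bodies. Tagln is at chr9:45929619-45936058 (minus strand) and overlaps Pcsk7 and the antisense gene Gm48529. Myl9 is at chr2:156775420-156781658 (plus), Myh11 at chr16:14194535-14291372 (minus) and Srf at chr17:46548329-46556175 (minus), where Srf overlaps Gm26904 and Mir6976. Of the calponins, Cnn1 is at chr9:22099216-22109630, Cnn2 at chr10:79988584-79996062 and Cnn3 at chr3:121426497-121458207, all on the plus strand, with Gm42928 and Gm42929 overlapping Cnn3. Ctgf, now named Ccn2, is at chr10:24595442-24598683 (plus) and overlaps the opposite-strand transcript Gm15270. Cyr61, now named Ccn1, is at chr3:145646976-145649981 (minus) and Ankrd1 at chr19:36111961-36120099 (minus). The libraries were directional, but whether fragments were counted by strand is not given in the sources used here. The loci that the tables list for Tagln, Cnn1 and Cnn2 also span neighbouring genes, so the share of fragments from an overlapping gene was not determined for those members.

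In dividing myoblasts at day 0, Ctgf was 3.27-fold higher after Huwe1 knockdown and the other counted members differed from their controls by less than 2-fold. Myl9, Tagln, Cyr61 and Srf were 1.87-, 1.54-, 1.47- and 1.30-fold above theirs, and each of these and Ctgf had a higher ratio than at least 90.1% of counted genes. Of 9 counted members, 1 was at least 2-fold higher, against 1.90% of all 10874 counted genes, and 0 were at least 2-fold lower, against 1.69%. The median log2 ratio of the counted members was 0.38, and that of all counted genes 0.00.

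At day 6 of differentiation the members parted. Of 8 counted, Ctgf, Cyr61 and Cnn2, 3 in all, were at least 2-fold higher in the Huwe1 knockdown, where 17.6% of all 11695 counted genes were, and Ankrd1 was the 1 member at least 2-fold lower, where 13.4% of genes were. The members' median was 0.41 and that of all genes -0.01. Against the control of the USP10 table, with both sides centred on the median gene, the members' median was -0.19, and with no minimum FPKM it was -0.20, so its sign rested on both choices.

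In day 8 myotubes 4 of 9 counted members, Tagln, Cnn1, Myl9 and Ankrd1, were at least 2-fold lower after Huwe1 knockdown, against 10.0% of all 11755 counted genes. None of the 9 was at least 2-fold higher, against 7.89% of genes. The median of the members was -0.83 and that of all genes 0.00. When ratios were centred on housekeeping genes, whose median was -0.36 in this table, 3 members remained at least 2-fold lower, as Ankrd1 came to -0.88. With a minimum of 5 FPKM, or of 1 FPKM in both columns, Cnn1 was no longer counted and 3 of 8 were lower. The same centring turned the count over all genes from 1180 lower and 928 higher to 812 lower and 1839 higher.

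With USP10 overexpressed, 2 of 8 counted members, Ctgf and Cnn2, were at least 2-fold higher, against 9.70% of all 11482 counted genes, and 1, Tagln, was at least 2-fold lower, against 10.0%. The members' median was -0.32 and that of all genes 0.05. With so few members, these counts describe the named genes and not a class.

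**Figure D1:**
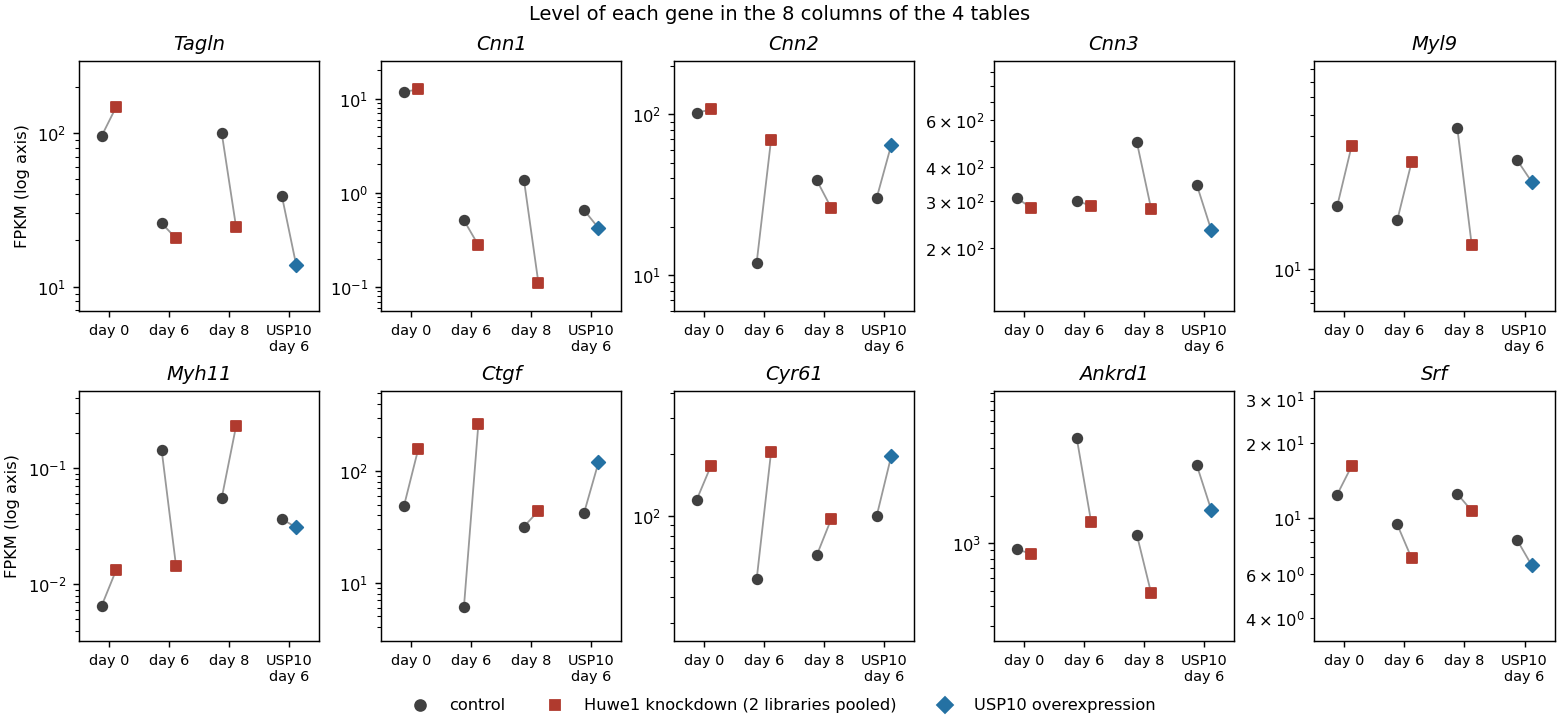
FPKM of each of the 10 genes (log axes, a separate scale for each gene) in the control and treated columns of the 4 tables, with a line joining the 2 columns of a table. Circles are controls, squares Huwe1 knockdown columns of 2 pooled libraries and diamonds the USP10 line. Ctgf ran from 6.04 FPKM in the day 6 control to 260.3 in the day 6 knockdown, and Cnn3 stayed between 233 and 496.

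**Figure D2:**
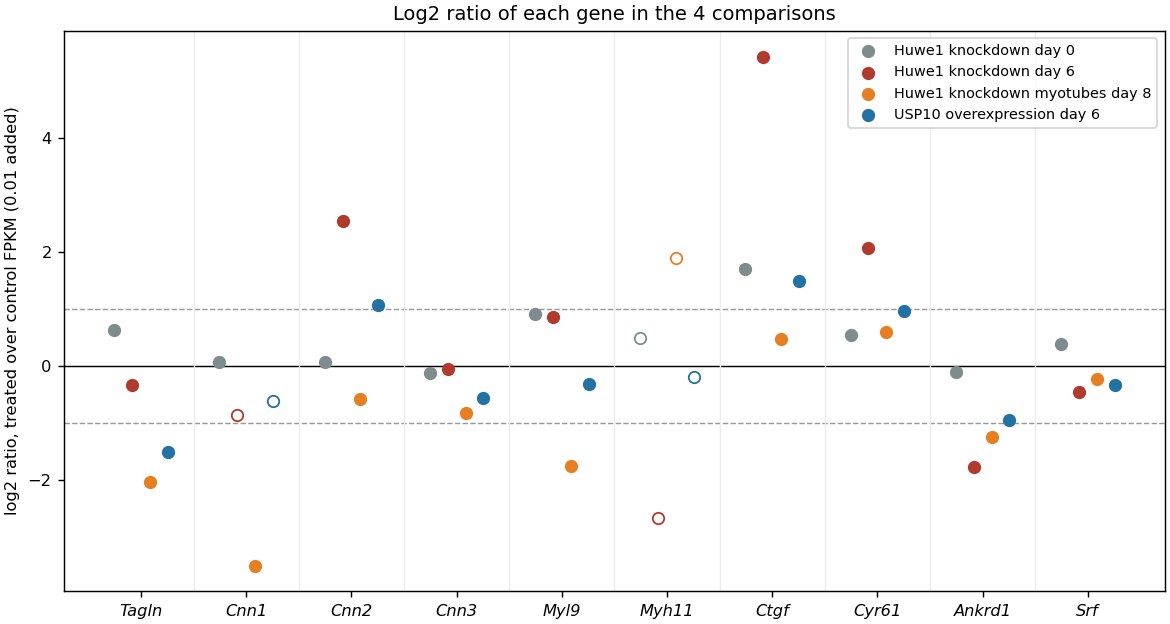
Log2 ratio of treated over control FPKM for each gene in the 4 comparisons, with 0.01 FPKM added. Dashed lines mark 2-fold, and open circles are genes under 1 FPKM in both columns, which were not counted. At day 8 Tagln, Cnn1, Myl9 and Ankrd1 lie below the lower line, and at day 6 Ctgf, Cnn2 and Cyr61 lie above the upper one.

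Among the genes of the contractile apparatus, Tagln encodes transgelin (SM22), an actin-binding protein of smooth muscle that is also made by fibroblasts and immature muscle. Tagln was 95.9 FPKM in the day 0 control and 148 in its knockdown, 25.9 and 20.6 at day 6, 100.3 and 24.3 at day 8, and 39.2 and 13.8 in the USP10 table. The treated column was the higher only at day 0. The log2 ratio was 0.63 at day 0, -0.33 at day 6, -2.04 at day 8, which is 4.12-fold lower, and -1.51 for USP10. Against the day 6 control of the Huwe1 table the USP10 value of Tagln came to -0.90, under the 2-fold limit.

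Myl9 encodes the regulatory light chain of smooth muscle and non-muscle myosin, whose phosphorylation switches the motor on. Its levels in control and knockdown were 19.2 and 35.9 FPKM at day 0, 16.6 and 30.5 at day 6, and 43.6 and 12.9 at day 8, and 31.0 and 24.8 in the USP10 table. Myl9 was thus above its control at days 0 and 6 and below it at day 8. The log2 ratios were 0.91, 0.87, -1.75 and -0.32, and only that of day 8 passed 2-fold. At day 6 the control mattered for its direction, since Myl9 in the knockdown came to -0.08 against the control of the USP10 table and in the USP10 line to 0.59 against that of the Huwe1 table.

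Cnn1 encodes the basic calponin of differentiated smooth muscle, a protein that binds actin and slows the myosin motor. Cnn1 was 11.8 FPKM in the day 0 control and 12.5 in the day 0 knockdown and at most 1.36 FPKM in all other columns. At day 6 it was 0.512 in the control and 0.279 in the knockdown, and 0.656 and 0.424 in the USP10 table, so it was not counted in either comparison. At day 8 it was 1.36 in the control, an estimated 57.8 fragments, and 0.111 in the knockdown, a log2 ratio of -3.50. With 1 FPKM added in place of 0.01 this ratio became -1.09, and with 0.1 it became -2.79, so that its size depends on the added value and its direction does not.

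Myh11, the smooth muscle myosin heavy chain and the most restricted marker of that lineage, was between 0.00653 and 0.232 FPKM in the 8 columns and never counted. In the day 0 control its value corresponded to an estimated 0.957 fragments. Myocd, the coactivator that drives the smooth muscle programme, was also under 1 FPKM in every column. Less restricted markers of the lineage were present, with Smtn (smoothelin) between 15.6 and 39.0 FPKM and Acta2 (smooth muscle actin, also made by myoblasts) between 419 and 1147. With Myh11 and Myocd at or near 0, the contractile genes above are described as genes of the list and not as a sign of smooth muscle cells.

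The calponin family was split by member. Cnn2, the calponin of non-muscle cells, was 102 FPKM in the day 0 control and 107 in its knockdown, 11.9 and 69.3 at day 6, 38.9 and 26.2 at day 8, and 30.3 and 64.2 in the USP10 table. The lowest of all 8 columns was the day 6 control, and the treated columns of both day 6 tables lay above both controls. The log2 ratio was 0.07 at day 0, 2.54 at day 6, which is 5.81-fold higher, -0.57 at day 8 and 1.08 for USP10. Against the other day 6 control it was 1.14 for the knockdown and 2.44 for USP10, and centred on housekeeping genes the USP10 ratio was 0.91, short of 2-fold.

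Cnn3, the acidic calponin found in brain and many other tissues, was the most abundant calponin in each column. It was 307 and 283 FPKM at day 0 in control and knockdown, 300.2 and 287 at day 6, 496 and 279 at day 8, and 343 and 233 in the USP10 table. Its 8 values spanned 2.12-fold, the least of the 10 genes. Cnn3 was lower than its control in each table, by log2 ratios of -0.12, -0.06, -0.83 and -0.56, none of them 2-fold.

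As a share of the summed calponin FPKM, Cnn2 made up 24.2% in the day 0 control and 26.6% in the day 0 knockdown. At day 6 its share was 3.81% in the control and 19.4% in the knockdown, and in the USP10 comparison it was 8.10% in the control and 21.5% in the USP10 line. At day 8 it was 7.25% and 8.58%. The treated cells of both day 6 tables were thus closer to the day 0 share of Cnn2 than their controls were, and at day 8 both columns were far from it. The Cnn1 share was 2.80% and 3.10% at day 0 and at most 0.254% elsewhere.

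**Figure D3:**
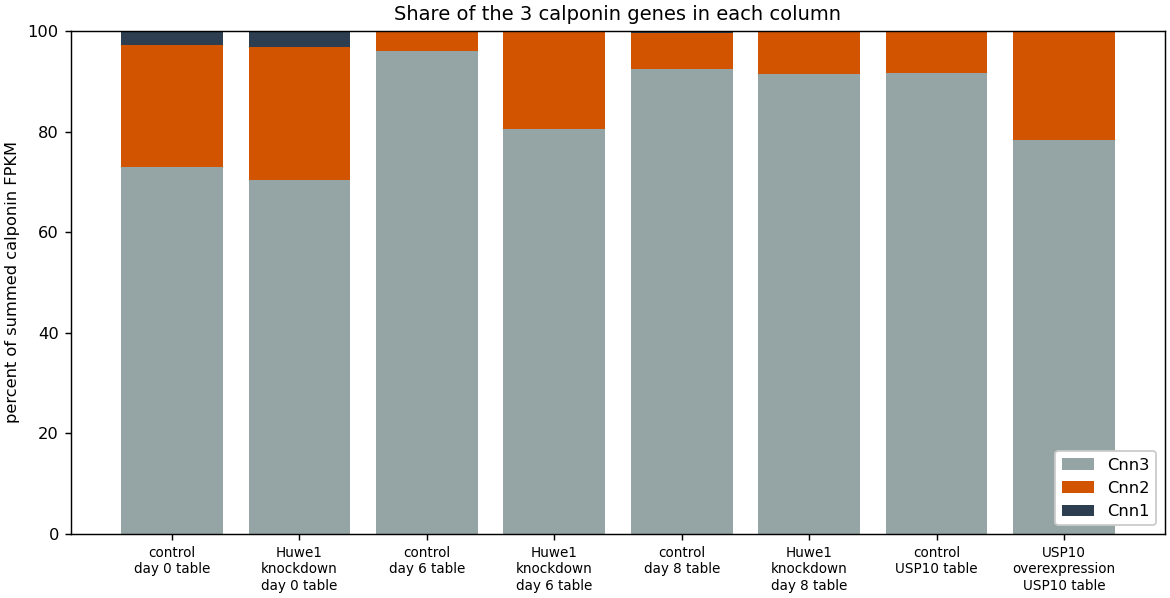
Share of Cnn1, Cnn2 and Cnn3 in the summed FPKM of the 3 calponin genes, in percent, 1 bar for each of the 8 columns. Cnn3 held between 70.3% and 96.0%, and the Cnn2 share of the day 6 knockdown and of the USP10 line, 19.4% and 21.5%, was above the 3.81% and 8.10% of their controls.

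Of the genes used as reporters of YAP and TEAD, Ctgf encodes connective tissue growth factor, a secreted matrix-associated protein. Ctgf was 48.1 FPKM in the day 0 control and 157 in the knockdown, 6.04 and 260.3 at day 6, 31.8 and 43.9 at day 8, and 42.1 and 119 in the USP10 table. All 4 treated columns were above their controls, and at day 0, day 6 and with USP10 they were above all 4 control columns. The log2 ratio was 1.71 at day 0, 5.43 at day 6, which is 43.0-fold higher, 0.47 at day 8 and 1.50 for USP10. Among the genes counted at day 6, 98.1% had a lower ratio than Ctgf. The 2 day 6 controls of Ctgf were themselves 6.97-fold apart, and against the other control the log2 ratio was 2.57 in the knockdown and 4.31 in the USP10 line.

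Cyr61, a secreted relative of Ctgf, was 119.6 and 176 FPKM at day 0 in control and knockdown, 48.9 and 205 at day 6, 64.1 and 96.3 at day 8, and 100.4 and 196 in the USP10 table. Like Ctgf it was above its control in 4 of 4 tables. The log2 ratios were 0.55, 2.07, 0.59 and 0.97, of which only that of day 6 passed 2-fold. With the other day 6 control, and ratios centred on the median gene, Cyr61 was 0.97 in the knockdown and 2.01 in the USP10 line. Without that centring the 205 FPKM of the knockdown was still just over 2-fold above the 100.4 of the other control. The day 6 call was thus close to the limit with that control.

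Ankrd1, an ankyrin repeat protein of the sarcomere and nucleus that is induced by stretch in muscle, went the other way. Ankrd1 was 918 and 856 FPKM at day 0 in control and knockdown, 4645 and 1363 at day 6, 1134 and 479.9 at day 8, and 3116 and 1621 in the USP10 table. Its highest values were the 2 day 6 controls and its lowest the day 8 knockdown. The log2 ratio was -0.10 at day 0, -1.77 at day 6, which is 3.41-fold lower, -1.24 at day 8 and -0.94 for USP10. Against the other day 6 control it was -1.25 in the knockdown and -1.51 in the USP10 line, so USP10 was past 2-fold with 1 control and short of it with the other. Centred on housekeeping genes it was -1.11 for USP10 and -0.88 at day 8. Thus at day 6 Ankrd1 and the pair Ctgf and Cyr61 lay on opposite sides of their controls in both tables.

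Srf, the transcription factor itself, varied little. Srf was 12.4 and 16.1 FPKM at day 0 in control and knockdown, 9.44 and 6.92 at day 6, 12.5 and 10.7 at day 8, and 8.15 and 6.48 in the USP10 table. Its 8 values spanned 2.49-fold, from the USP10 line to the day 0 knockdown, and it was above its control only at day 0. The log2 ratios of 0.38, -0.45, -0.23 and -0.33 were all short of 2-fold.

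The only view of how far 2 control columns can lie apart came from day 6. Over 11459 genes the 2 day 6 controls had a robust SD of 0.63 on the log2 scale, and 19.9% of genes were at least 2-fold apart between them. Of the counted members 3 were: Ctgf by 6.97-fold, Cnn2 by 2.54-fold and Cyr61 by 2.05-fold. The others were 1.86-fold apart for Myl9, 1.51 for Tagln, 1.49 for Ankrd1, 1.16 for Srf and 1.14 for Cnn3. The Huwe1 knockdown column lay above both controls for Ctgf, Cyr61 and Cnn2, between them for Myl9, and below both for Tagln, Ankrd1, Cnn3 and Srf. The USP10 line gave the same placing for each of these 8 genes. The tables were normalized separately, so this placing is a description. For days 0 and 8 no such pair of controls exists.

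**Figure D4:**
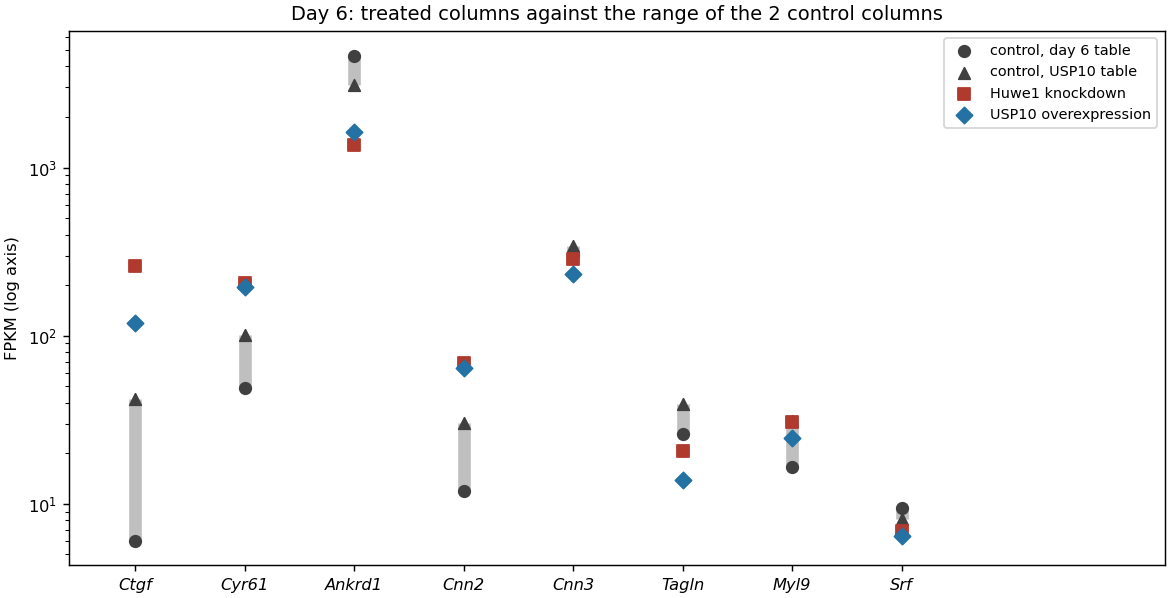
FPKM (log axis) of the 8 counted genes at day 6 in the 2 control columns (circle and triangle, with a grey bar spanning them), the Huwe1 knockdown (square) and the USP10 line (diamond). For Ctgf, Cyr61 and Cnn2 both treated columns lie above the bar, and for Myl9 both lie within it.

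Other genes of these pathways, from lists written from general knowledge, were counted without the 10 members, and their counts are read against the shares of all genes given above. A gene that reached 1 FPKM in only 1 of the 2 columns could lie only on the side of that column. The lists overlap, with Acta2 and Tpm1 both in the cytoskeletal and the smooth muscle list, Lats2 in the YAP target and the Hippo list and Actb in the cytoskeletal and the housekeeping list. Of 16 MRTF and SRF targets of the actin cytoskeleton, 9 were at least 2-fold higher and 1 at least 2-fold lower in the day 6 Huwe1 knockdown, with a median log2 ratio of 1.22 that came to 0.55 against the other day 6 control. Those higher included Tagln2, a relative of transgelin, at 7.80 FPKM in control and 49.0 in knockdown cells, and Fhl2, a LIM-domain cofactor, at 6.58 and 39.5. Tpm1, a tropomyosin that sarcomeres use too, was the lower one, at 2257 and 798. In the other comparisons the list stood nearer to its controls, with medians of 0.02 at day 0, -0.18 at day 8 and 0.32 for USP10, and with 0 lower and 0 higher at day 0, 3 lower and 0 higher at day 8, and 0 lower and 1 higher for USP10. The latter was Actg1, a cytoplasmic actin, at 248 FPKM in the control and 767 in the USP10 line. With the other day 6 control the USP10 median was 1.30, and centred on housekeeping genes the day 8 median was 0.18.

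The list of smooth muscle contractile genes was mixed at day 6 and mostly lower at day 8. At day 6, 4 of 12 counted genes lay at least 2-fold above the control and 3 as far below it in the knockdown, with a median of 0.05 (-0.40 against the other control, -0.04 centred on housekeeping genes). Actg2, the enteric smooth muscle actin, was 2.14 FPKM in control and 10.6 in knockdown cells, whereas Tpm2, a tropomyosin shared with skeletal muscle, was 2925 and 461 and Synpo2, an actin-bundling protein, 117 and 16.6. In the control of the USP10 table Actg2 was 13.7 FPKM, so its side at day 6 depended on the control. At day 8, 6 of 13 counted genes lay at least 2-fold below the control and 0 as far above it, with a median of -0.90. Of these 6, Lmod1 and Sncg reached 1 FPKM only in the control, so their side was fixed by the minimum. Actg2 was 25.0 FPKM in the day 8 control and 1.51 in the knockdown, and Tpm2 1449 and 419.6. At day 0 Actg2 was 56.8 and 136, so its side of the control differed between day 0 and day 8, as that of Tagln and Myl9 did. At day 0, 2 of 11 were higher and 0 lower, with a median of -0.02. Of those 2, Lmod1 reached 1 FPKM only in the knockdown, which fixed its side. For USP10 1 of 12 was lower and 0 higher, with a median of -0.15 (0.36 against the other day 6 control). That gene was Synpo2, at 58.7 FPKM in the control and 7.51 in the USP10 line.

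YAP and TEAD targets other than Ctgf, Cyr61 and Ankrd1 lay on both sides of the control at day 6. Of 18 counted, 7 were at least 2-fold higher and 2 at least 2-fold lower in the day 6 knockdown, against 17.6% and 13.4% of all genes. Some of them, on either side, reached 1 FPKM only in the higher column. The median of 0.56 was 0.29 with 1 FPKM required in both columns and turned to -0.24 against the other day 6 control. Asap1, a regulator of focal adhesions, was 10.5 FPKM in control and 83.5 in knockdown cells, and Gadd45a, a stress-induced growth regulator, was 1331 and 409. Elsewhere few were called, with 0 lower and 0 higher of 16 at day 0, 1 lower and 1 higher of 18 at day 8, and 2 lower and 0 higher of 18 for USP10. Some of these, too, reached 1 FPKM only in the higher column. The medians were -0.05, -0.12 and -0.12, of which the day 8 value was 0.24 when centred on housekeeping genes and the USP10 value 0.33 with the other control. In the USP10 table Ccdc80, a secreted matrix protein, was 130.2 FPKM in the control and 53.3 in the USP10 line.

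The immediate early genes, SRF targets that respond to TCF, lay below their controls in both day 6 tables. In the knockdown 5 of 7 counted were at least 2-fold lower and 0 higher, with a median of -1.44, and in the USP10 line 4 of 6 were lower and 0 higher, with a median of -1.68. Fos and Egr3 in the day 6 knockdown, Egr2 with USP10 and Egr3 at day 8 reached 1 FPKM only in the control. Their side was thus fixed by the minimum. With 1 FPKM required in both columns the median of the day 6 knockdown was again -1.44. Junb, a subunit of AP-1, was 74.2 FPKM in the day 6 control and 11.7 in the knockdown, and 39.1 and 10.9 in the USP10 table. Egr1, a zinc finger factor, was 20.2 in the control and 5.40 in the USP10 line. At day 0, 1 of 7 was lower and 0 higher with a median of -0.36, and at day 8, 2 of 8 were lower and 0 higher with a median of -0.30, or 0.07 centred on housekeeping genes. The cytoskeletal and the immediate early targets of SRF thus had medians on opposite sides of 0 in both day 6 comparisons, while Srf itself was below its control by less than 2-fold.

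The regulators of SRF, such as the MRTF genes, the TCF genes and RhoA and its kinases, were at least 2-fold higher for 3 of 8 counted genes at day 6 and lower for 0, with a median of 0.71 (0.30 against the other day 6 control). These were Elk3, a TCF, at 3.34 and 20.4 FPKM, Rhoa, the GTPase that drives actin polymerization, at 162 and 428, and Rock2, a kinase downstream of it, at 115 and 249. In the control of the USP10 table Elk3 was 9.78 FPKM, so the size of its day 6 ratio depended on the control. Rhoa was 168 in the control and 369 in the USP10 line, the 1 of 8 called there, with 0 lower and a list median of 0.24. At day 0 and day 8 0 of 8 were called either way, with medians of 0.02 and -0.14, the latter 0.22 when centred on housekeeping genes.

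Of 18 genes for YAP, TEAD and the Hippo pathway all were counted in each table and the medians were near 0, at 0.08, 0.09, -0.02 and -0.01 for day 0, day 6, day 8 and USP10. Their signs at days 6 and 8 turned under housekeeping centring (-0.01 and 0.34) and that of USP10 with the other control (0.04). The numbers lower and higher were 2 and 0, 2 and 2, 2 and 0, and 3 and 1. Yap1 itself was 24.5 FPKM in the day 6 control and 33.9 in the knockdown, and 31.2 and 33.7 in the USP10 table. Tead4, the TEAD protein that is prominent in differentiating muscle, was 42.6 and 4.10 FPKM at day 6, 31.8 and 7.44 at day 8, and 16.6 and 2.66 in the USP10 table. Amot, a scaffold that holds YAP in the cytoplasm, was 27.7 and 6.09 at day 6 and 17.3 and 3.67 in the USP10 table. Vgll2, a TEAD cofactor of skeletal muscle, was 43.6 and 14.1 at day 0 and 4.82 and 0.0458 at day 8. It was 0.627 and 15.1 at day 6 and 5.09 and 44.9 in the USP10 table. Vgll2 thus lay below its control at days 0 and 8 and above it in both day 6 tables.

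**Figure D5:**
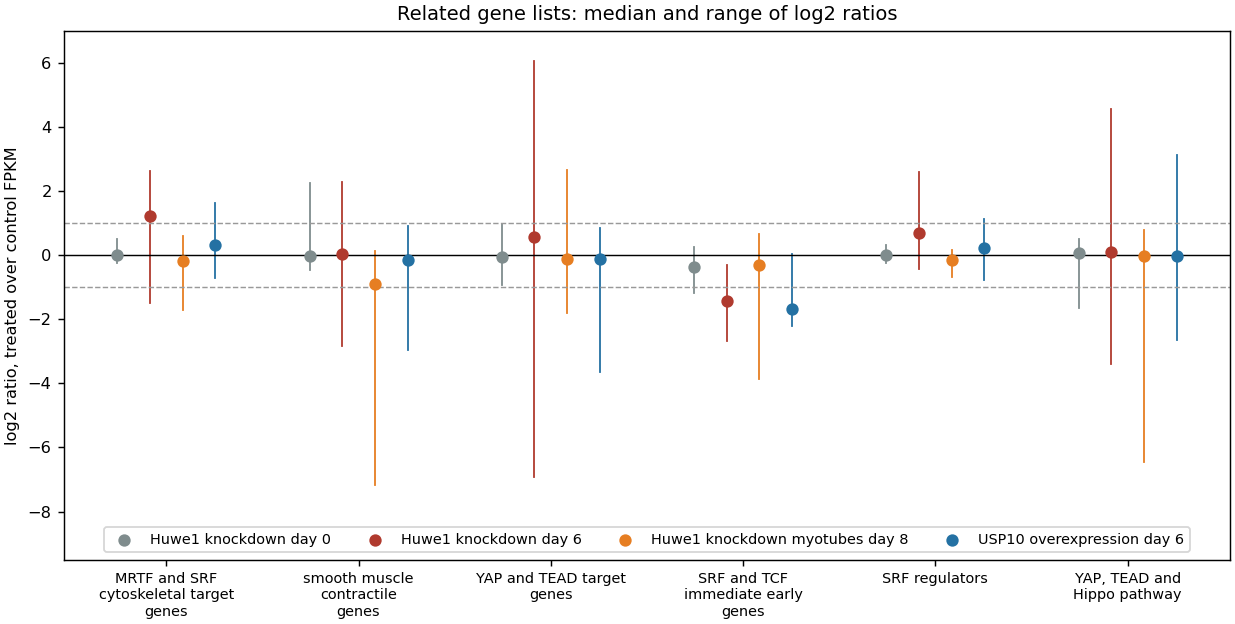
Median (point) and range (line) of log2 ratios of the counted genes in 6 related lists, without the 10 members, in the 4 comparisons. Dashed lines mark 2-fold. At day 6 of Huwe1 knockdown the cytoskeletal SRF targets have a median of 1.22 and the immediate early genes one of -1.44.

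Markers of skeletal muscle and of other cell types were counted in the same way. Of 15 skeletal muscle markers, 14 were at least 2-fold lower and 0 higher in the day 6 knockdown, 15 and 0 at day 8, and 11 and 0 with USP10, and their summed FPKM was 34364 in the control and 7229 in the knockdown at day 6, 24710.2 and 5056 at day 8, and 16055 and 6870.1 in the USP10 table. Their day 6 median of -2.82 was -1.79 against the other control. Myog, the factor that starts muscle differentiation, was 619 and 27.1 FPKM at day 6, 392 and 148 at day 8, and 305 and 28.8 in the USP10 table. At day 0 the list was barely transcribed, at a sum of 365 and 192 FPKM, with 7 of 15 counted, 2 lower and 1 higher. Each gene called at day 0 reached 1 FPKM in only 1 of the 2 columns, which fixed its side. In bulk samples like these, fewer cells of a type and less of its RNA per cell cannot be told apart. FPKM is a share of all fragments, and the part of the skeletal markers in the ratios of the members was not tested.

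Fibroblast markers were higher at day 6, where 6 of 6 counted genes passed 2-fold upward and the sum of the 8 listed was 122 FPKM in control and 3792 in knockdown cells. Lum and Fbln1 at day 6, and Lum with USP10, reached 1 FPKM only in the treated column. Their side of the control was fixed by the minimum. The median at day 6 was 3.61, and 0.90 against the other day 6 control, while that of USP10 was 0.58, and 3.31 with the other control. With USP10, 2 of 6 were higher and 0 lower, with sums of 460.0 and 3613, at day 8 2 of 5 were higher and 0 lower, with sums of 494 and 803, and at day 0 1 of 5 was higher and 0 lower, with sums of 324 and 235. The sums of the treated day 6 columns came mostly from Dcn, which encodes decorin, at 7.94 and 2987 FPKM and, in the USP10 table, at 50.3 and 3037. Thy1 was listed at 0 in 6 of 8 columns. The part of these genes in the values of Ctgf, Cyr61 and Cnn2 was not tested.

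The endothelial, pericyte and cardiac markers each summed to at most 65.2 FPKM in any column. Not every gene was low, as Pdgfrb was 52.1 FPKM and Myh6 30.5 in the control of the USP10 table. The summed endothelial markers ranged from 0.106 to 13.6 FPKM, with Cldn5 listed at 0 in 8 of 8 columns, and 0 of 1, 2 of 2 and 1 of 1 counted genes were higher at day 0, day 6 and with USP10, with none counted at day 8. Those counted at day 6 and with USP10 reached 1 FPKM only in the treated column. Their side of the control was thus fixed by the minimum and is not a result. Of the pericyte markers 1 of 3, 1 of 4, 0 of 3 and 2 of 4 were lower at day 0, day 6, day 8 and with USP10, and 1 was higher, at day 6. They summed to 26.7 and 20.7 FPKM at day 0 in control and knockdown, 13.8 and 36.1 at day 6, 65.2 and 56.3 at day 8, and 60.1 and 38.7 in the USP10 table. Cardiac markers summed to between 6.37 and 34.9 FPKM, with 0 of 3, 1 of 2, 0 of 3 and 2 of 3 lower and 0, 1, 0 and 1 higher in the same order. Some of the pericyte and cardiac genes called lower at day 6 and with USP10 reached 1 FPKM only in the control, which fixed their side. The housekeeping list had medians of -0.03 at day 0, 0.10 at day 6, -0.36 at day 8 and 0.17 for USP10, with 0, 1, 1 and 0 of 16 lower and 0, 2, 0 and 3 higher.

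The genes whose 4 log2 ratios were nearest to those of each member were sought among 9417 genes with at least 1 FPKM in all 8 columns, by Euclidean distance in log2 units. Nearest to Cnn2 were Fhl2 at 0.27, Elk3 at 0.31 and Pls3 at 0.32, of which Fhl2 and Elk3 stand in the SRF lists above. For Ctgf no gene came within 1 unit, and the nearest were Lgals3bp at 1.10, Ccnd1 at 1.72 and Cd34 at 1.73. Cyr61 was nearest to Cobll1 at 0.15, with Apbb1ip and AI413582 both at 0.31, and Ankrd1 had Inppl1 at 0.28 and Traf4 at 0.31 among its nearest. Tagln had Ckap2 at 0.74, Snrpn at 0.93 and Hbegf at 1.00, and Myl9 had Cks2 at 0.56, Tuba1c at 0.59 and Mad2l1 at 0.66. Cnn3 was nearest to Prss57 at 0.19, Ndufa11 at 0.24 and Acat1 at 0.25, and Srf to Mrpl39 at 0.09, Zfp1 at 0.11 and Cldn25 at 0.12. Each distance rests on 4 ratios without replicates, and Cnn1 and Myh11 were left out as they fell under 1 FPKM.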

How the data were processed

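RNA from C2C12 cells (10 libraries) was compared in 4 tables. The authors mapped reads with Tophat, per the study's methods, and made the tables with Cuffdiff. The submitters' processing notes list Bowtie2, Cuffdiff and mm10, and versions are not given in the sources used here. The deposited values used here are FPKM, 1 for each condition, with the 2 libraries of each knockdown pooled. The deposited tables also hold the authors' fold changes, test statistics, p-values and q-values, none of which were used.

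From these FPKM, log2 ratios of treated to control were computed with 0.01 added, for genes reaching 1 FPKM in either column, and called at 2-fold. With 1 value per condition no test was run. Tables were normalized separately, so levels set across them are descriptions. The USP10 table's control was not matched to a library. Depth was estimated from the smallest values of genes that have a single annotated transcript, no shorter than 1500 bases. It could not be had for pooled columns. The 10 genes and 12 lists (those printed in the text) were chosen with earlier results of these data known. From each list the text names, per comparison, up to 3 of the largest decreases and of the largest increases past 2-fold with at least 10 FPKM in 1 column and 1 FPKM in both. Yap1, Myocd, Smtn, Acta2, Des, Thy1, Cldn5 and the genes named only in the additional observations were named after their values were seen. So were Lum, Fbln1, Lmod1, Sncg, Fos, Egr2, Egr3, Pdgfrb and Myh6. A gene among those nearest to a member is not reported here. Alternatives were an added value of 0.1 or 1 FPKM, a minimum of 5 FPKM or of 1 FPKM in both columns, no minimum, centring on all genes or on housekeeping genes and, chosen after seeing the data, the control of the other day 6 table. Ratios to that other control were also centred on the median gene. The arithmetic was run on simulated data with changes planted well past the 2-fold limit, among genes of at least 5 FPKM in the control. Unchanged genes varied there by an SD of 0.1 on the log2 scale, against a robust SD of 0.63 between the day 6 controls. In each comparison 200 of 200 changed genes were recovered with 0 unchanged genes called. With these settings that outcome was assured, so it says nothing about false calls in the real data. Scripts ran under Python 3.11.15, with numeric work in pandas 2.3.3 on numpy 2.4.6 and plots by matplotlib 3.10.9.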

Additional observations from a re-analysis of the deposited data

Results flagged for a closer look

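Tagln and Myl9 lay on opposite sides of their controls at different stages of Huwe1 knockdown, by at least 1.5-fold each way, a limit set after the values were seen. The log2 ratio of Tagln was 0.63 at day 0 and -2.04 at day 8, a difference of 2.67. That of Myl9 was 0.91 at day 0 and -1.75 at day 8, a difference of 2.66, and it was 0.87 at day 6, which differs from day 8 by 2.63. These differences were not tested, since each condition has 1 value, and by the labels the hairpins and the type of control also differed between day 8 and the earlier days, although the methods describe both as alike. Against the control of the USP10 table the day 6 ratio of Myl9 was -0.08, so its difference from day 8 depends on the control column.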

How the results depend on the processing

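No paired analysis was possible because the tables pool the replicates into 1 value, and for the same reason no library could be left out in turn. Of 252 recomputed log2 ratios of the 10 genes, 241 moved by less than 0.63, the robust SD between the day 6 controls, 11 moved further, and 0 of those past 2-fold changed sign. In 7 the 2-fold limit was crossed. With the control of the other day 6 table, centred on the median gene, these were Cyr61 in the knockdown (0.97, past 2-fold without the centring) and Tagln (-0.90), Cyr61 (2.01) and Ankrd1 (-1.51) with USP10. Centred on housekeeping genes they were Ankrd1 at day 8 (-0.88) and, with USP10, Cnn2 (0.91) and Ankrd1 (-1.11), which gave 2 members lower and 1 higher for USP10. With the other control the members' median turned from 0.41 to -0.19 for the day 6 knockdown and from -0.32 to 0.12 for USP10, and without a minimum FPKM the day 6 median was -0.20. The cause was not tested. Without a minimum FPKM, Myh11 made 2 members lower at day 6 and 1 higher at day 8, with no column of Myh11 above 0.143 FPKM at day 6 or 0.232 at day 8.

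Counts over all genes moved most with the minimum. At day 0 the genes lower and higher were 184 and 207, and became 88 and 124 with 1 FPKM added, 90 and 117 at 5 FPKM, 106 and 91 at 1 FPKM in both columns, and 953 and 1710 without a minimum. At day 6 the 2061 higher became 1357 at 5 FPKM and 1284 at 1 FPKM in both columns, and without a minimum 3141 were lower and 3937 higher. At day 8 the 1180 lower and 928 higher became 771 and 502 at 5 FPKM, 783 and 544 at 1 FPKM in both columns, and 3640 and 2408 without a minimum, with 545 higher when 1 FPKM was added and 1839 when centred on housekeeping genes. For USP10 the 1153 lower and 1114 higher became 658 and 740 at 5 FPKM, 669 and 741 at 1 FPKM in both columns, 2880 and 2983 without a minimum, and 1777 and 2044 with the other day 6 control. Of 351 list medians 320 moved by less than 0.63, 21 had the opposite sign and 9 came to 0. Of the 21, 7 arose with the other day 6 control and 7 under housekeeping centring. Of list medians past 2-fold, 5 changed sign or came to 0. The cardiac markers were at 1.57 (day 6) and 1.50 (USP10) at 1 FPKM in both columns and at 0.00 and 1.39 without a minimum, and the endothelial markers at 0.00 at day 6 without a minimum.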

Other observations

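The 2 secreted YAP reporters did not keep a fixed proportion. The level of Cyr61 over that of Ctgf, both in FPKM within a column, was 2.49 in the day 0 control and 1.12 in the knockdown, 8.10 and 0.788 at day 6, 2.02 and 2.20 at day 8, and 2.38 and 1.65 in the USP10 table. Ctgf was the more abundant of the pair in the day 6 knockdown and Cyr61 in the other 7 columns.

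Crim1, a transmembrane protein on the list of YAP and TEAD targets, was singled out after its values were seen. It was 9.18 FPKM in the day 0 control and 18.0 in the knockdown, 1.15 and 9.05 at day 6, 0.971 and 6.28 at day 8, and 7.49 and 13.4 in the USP10 table, above its control in 4 of 4 tables as Ctgf and Cyr61 were. The log2 ratios were 0.97, 2.96, 2.68 and 0.84. That of day 6 depended on the control, since the 9.05 FPKM of the knockdown was near the 7.49 in the control of the USP10 table. Asap1 of the same list was also above its control in 4 of 4 tables. The rest of that list was not, apart from Ctgf and Cyr61, and the share of all genes that were was not counted.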
